A study of Brassica napus with 23 samples.

Results

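Chromosomes A07 and C06 are homoeologous partners in oilseed rape, Brassica napus, and all 7665 genes that the deposited count table places on them were taken, out of 101040 genes in all (7.59%). They comprised 3593 genes on A07 and 4072 on C06, chosen by the chromosome name alone. The 333 genes on unplaced A07 scaffolds and the 328 on unplaced C06 scaffolds were left out. RNA from shoots and roots was sequenced after plants received LB broth (the controls, labelled negative) or 15 mL of PA23. PA23 is a strain of the bacterium Pseudomonas chlororaphis that is studied against fungal disease of this crop. Treatment came 7 d after planting and harvest 24 h or 7 d after treatment, within a growth period of 14 d. The 23 libraries fall into 8 groups of 3, apart from the control roots at 24 h, of which 2 libraries were analysed here. All plants were B. napus of a cultivar that the labels do not name, and nothing says whether replicates came from separate plants, so p-values measure the spread between these libraries only.

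Brassica napus is an allotetraploid that carries a complete A genome from a Brassica rapa ancestor and a complete C genome from a Brassica oleracea ancestor. Most A genes therefore have a closely similar homoeologue on a C chromosome, and long blocks of the partners keep the same gene order. Either copy may supply most of the transcript, a copy may be silent, and pieces of a chromosome can be exchanged between partners. Reads from such copies can match each other, and the sources used here do not say how reads that match more than 1 place were counted, and each A against C value carries that uncertainty.

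Total counts ran from 0.622 to 721.4 M counts per library, with a median of 45.8 M counts. In 6 libraries the total was 1.70 M counts or less, and in the other 17 it was 16.8 M counts or more. Those 17, with 8 from shoots and 9 from roots, gave the levels below, as CPM, counts per M counts of the library, scaled by TMM, a factor that sets the bulk of genes equal between libraries. A gene is called expressed at a mean of 1 CPM or more in shoots or roots, and silent under 0.1 CPM in both. The files do not pair gene IDs with names or products, so no role is given to any member and the tissue labels could not be checked against marker genes.

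On A07, 2205 genes (61.4%) were expressed and 876 (24.4%) were silent. On C06 the values were 2089 genes (51.3%) and 1395 genes (34.3%). No count in any of the 23 libraries was found for 327 A07 genes (9.10%) and 585 C06 genes (14.4%). In each of the 17 deep libraries alone the share of genes at 1 CPM or more was higher on A07, which spanned 48.8% to 55.8%, than on C06, which spanned 40.8% to 45.3%. Both chromosomes sat near the middle of their own genome. The 10 A chromosomes ranged from 54.6% to 64.0% expressed with a median of 61.1%, and the 9 C chromosomes from 45.0% to 55.1% with a median of 51.6%.

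Gene length differed between the partners. Genes under 500 bp from start to end made up 9.57% of A07 and 16.1% of C06, and few of them were expressed, 11.9% and 8.24%. A07 was higher in every length class. From 500 to 1500 bp 52.6% of A07 and 44.3% of C06 genes were expressed, from 1500 to 3000 bp 71.9% and 67.3%, and above that 80.4% and 73.2%. Among expressed genes the median level per kb of gene was 3.58 CPM on A07 and 3.66 CPM on C06 in shoots, and 3.37 and 3.46 CPM in roots. Gene density was 150 genes per Mb on A07 and 109 on C06.

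**Figure D1:**
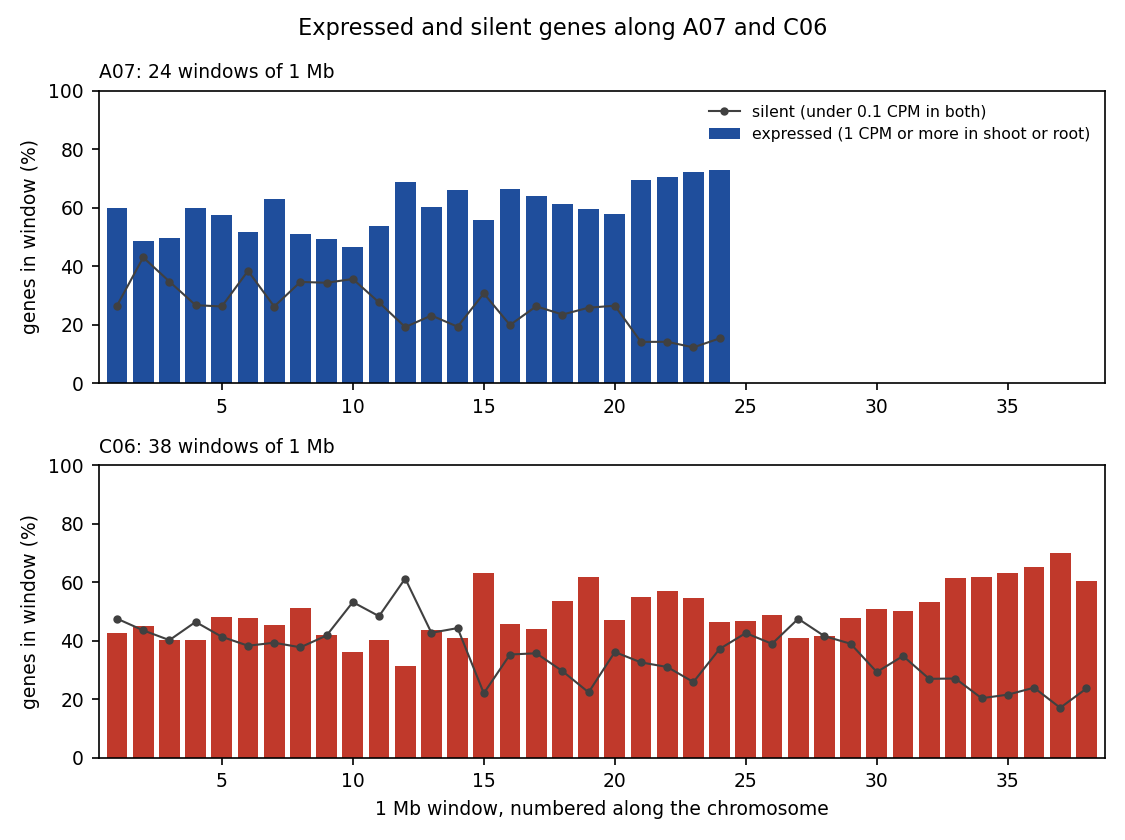
Percent of genes expressed (bars) and silent (line) in each 1 Mb window, numbered along A07 (top) and C06 (bottom). All 24 A07 windows hold more expressed than silent genes, against 28 of 38 C06 windows, and the last windows of each chromosome are among its most expressed.

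No 1 Mb window was silent, with silent defined as under 10% of its genes expressed. On A07 the 24 windows of 10 or more genes held 46.6% to 72.8% expressed genes, and on C06 the 38 windows held 31.3% to 70.0%. The count of silent windows stayed at 0 with windows of 0.5 Mb, where the lowest value was 21.6%, and with windows of 2 Mb. The plot of expressed genes along the chromosomes shows a long low stretch at the start of C06 and a rise towards the far end of both. The poorest window was the 12th of C06, from 11 to 12 Mb, with 25 of 80 genes expressed and 61.3% silent. The 6 A07 windows and 1 C06 window in the top 10% of all windows held over 66.4% expressed genes. Of these, 4 were the last windows of A07, at 69.5%, 70.4%, 72.1% and 72.8%, and the C06 window was the 37th, at 69.9%. From position 13485675 of A07 on 65.6% of genes were expressed, against 55.8% before it, and from position 16920074 of C06 on 55.2%, against 44.0%.

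A minority of the 876 and 1395 silent genes lay in runs of neighbours. Runs of 6 or more consecutive silent genes numbered 5 on A07, with 37 genes, and 19 on C06, with 129 genes. Of these 166 genes, 93 had no count in any library. The longest run spanned 10 genes from BnaC06g03060D to BnaC06g03150D (C06, 3728122 to 3755783). It gathered 9 counts over all 23 libraries, yet close before it lies BnaC06g03040D (C06, 3713049 to 3715374), the C06 gene with the most counts in roots, at 545 ± 50.02 CPM (SD, n = 9). The longest A07 run spanned 9 genes from BnaA07g02770D to BnaA07g02850D (A07, 2454258 to 2494560) and held 45 counts over all libraries.

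A07 supplied more than its part of the transcripts. It holds 46.9% of the genes of the pair and 51.4% of the expressed genes, but gave 54.99% ± 1.29 of the pair's counts in shoots (SD, n = 12, range 52.4% to 56.6%) and 52.8% ± 1.13 in roots (SD, n = 11, range 51.1% to 54.7%). The tissues overlapped, and the shoot share was 2.23 percentage points higher (two-sided permutation test, p = 0.00054, adjusted p = 0.00378 over 7 tests of this share). Sequencing runs were inferred from the prefix of each sample's description, and the sample titles name no run. Within the inferred run that holds both tissues, 12 shoot and 4 root libraries, the difference was 2.77 points (permutation p = 0.0033). In whole tissue, fewer cells of a type and less RNA per cell cannot be told apart. Together the chromosomes took 7.45% ± 0.182 of all counts in shoots and 7.95% ± 0.173 in roots.

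In shoots 2 A07 genes stood out, with 6.82% and 5.14% of the chromosome's summed CPM. BnaA07g07560D (A07, 7848572 to 7849375) had a lowest, median and highest level of 2435, 3023 and 5480 CPM in the 8 deep shoot libraries and 0.453 to 2.10 CPM in the 9 deep root libraries. BnaA07g14420D (A07, 12744547 to 12745568) had 1400, 2661 and 3486 CPM in shoots and 0.394 to 1.29 CPM in roots. The ranges of shoots and roots lie about 3 orders of magnitude apart for each gene. Per kb of gene their shoot levels were 4381 and 2595 CPM, and the highest of the other leading shoot genes of the pair was 1065 CPM per kb, for BnaC06g20160D on C06 (22220875 to 22221724). Without these 2 genes the A07 share was 51.8% ± 1.25 in shoots and 52.8% ± 1.13 in roots, a difference of -0.974 points (permutation p = 0.0641). The 2 genes were chosen for the highest CPM, and both are A07 genes abundant in shoots. Leaving them out had to lower the shoot share, so this comparison cannot decide what the shoot excess rests on. Without the 10 genes of highest CPM on each chromosome the order of the tissues turned, with 52.0% ± 1.29 in shoots and 53.2% ± 1.16 in roots (difference -1.19 points, permutation p = 0.0283).

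The same genes set the levels of their windows. The 8th A07 window gave 4.62% of the pair's counts in shoots and 0.820% in roots, and BnaA07g07560D made up 82.0% of its summed shoot CPM. In the 13th window, with 4.18% in shoots and 1.55% in roots, BnaA07g14420D made up 68.3%. The 5 leading genes of A07 made up 18.2% of the chromosome's summed shoot CPM, and those of C06 9.82%. In roots no member came near: the 5 leading genes made up 7.18% of A07 and 6.51% of C06, headed by BnaA07g14980D (A07, 13066819 to 13077621) at 634 ± 154 CPM (SD, n = 9) and BnaC06g03040D.

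**Figure D2:**
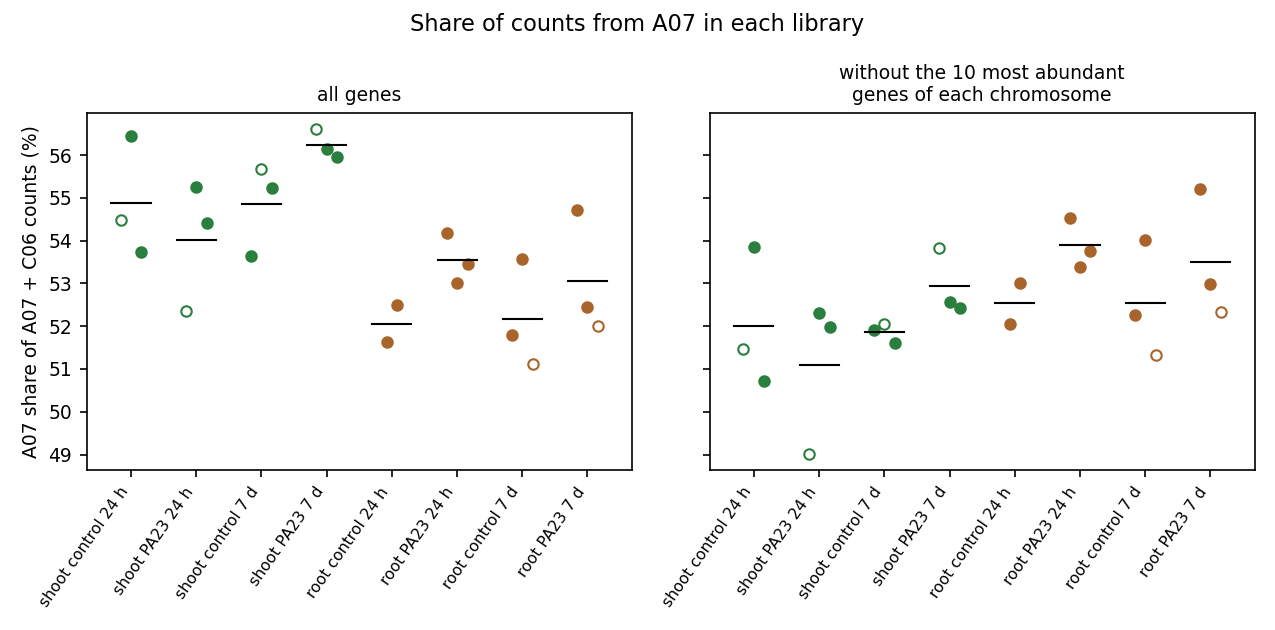
A07 share of the counts on A07 and C06 (percent) in each of the 23 libraries, by group, for all genes (left) and without the 10 most abundant genes of each chromosome (right). Points are libraries, open points those under 2 M counts, and bars group means. On the left shoots average 54.99% and roots 52.8%, and on the right 52.0% and 53.2%.

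With groups of 2 or 3 libraries the exact permutation test could not go under 0.05. In the 4 comparisons with PA23 it thus cannot decide whether the A07 share moved. In shoots at 7 d the 3 PA23 libraries, at 56.6%, 56.1% and 56.0%, lay above the 3 controls, at 55.7%, 55.2% and 53.6%. That difference of 1.38 points reached p = 0.1 in the exact permutation test, the smallest value that 3 against 3 allows. In shoots at 24 h the PA23 mean was 0.885 points lower (-0.885, exact permutation p = 0.5). The root differences were 1.49 points at 24 h (exact permutation p = 0.2, the smallest value that 3 against 2 gives) and 0.889 points at 7 d (p = 0.5), with overlapping ranges at 7 d. Between harvests the control shares differed by -0.0376 points in shoots (exact permutation p = 0.9) and 0.109 in roots (p = 1.0).

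Share values of other partner chromosomes show where the pair stands. A02 supplied 52.6% ± 1.65 of the counts of A02 and C02 in shoots and 53.9% ± 1.34 in roots, and A01 50.3% ± 0.623 and 50.9% ± 1.68 with C01. A03 supplied 42.7% ± 0.610 and 46.0% ± 0.579 with C03, and A10 36.7% ± 0.606 and 38.6% ± 1.15 with C09. Of the genes of their pairs, A02 holds 44.2%, A01 45.9%, A03 43.5% and A10 35.3%. Only A03 in shoots had a mean under its share of genes, so an excess over that share is not particular to A07. Of these 5 pairs, A07 and C06 was the one with a higher mean A share in shoots than in roots. That order was lost without the 2 A07 genes above, and leading genes of the other pairs were not left out.

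A map of which part of A07 faces which part of C06 was built from the gene order. RefSeq places genes by locus tag on its own B. napus assembly, Da-Ae, and 273 members could be matched to it. It puts 118 matched A07 genes on A7 and 135 matched C06 genes on C6. It puts further A07 genes on C7 (2), A9 (1) and no known chromosome (1). Further C06 genes lie on its A6 (2), A1 (1), C7 (1) and C9 (1), so placements off the chromosome were not all on the partner. RefSeq's placements outside the pair gave no facing positions. On A7 it puts 7 genes that the count table lists on C06, and on C6 4 that are listed on A07. Each of these 11 genes is thus flanked by genes of the partner chromosome, and the 11 positions run in the same order on both chromosomes. They give 9 break points, each known to within the gap between its flanking genes (125 to 865 kb), and 8 facing segments. The segments cover A07 from 13485675 to 23627066 and C06 from 16920074 to 36579354, on the build of the count table, which the sources used here do not name. Outside this stretch no facing positions were set. The map was drawn after levels had been seen, and it used no level.

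Within the facing stretch the partners gave nearly equal counts. A07 has 1922 genes there, of which 65.3% were expressed, and C06 has 2537, of which 54.5% were. A07 thus holds 43.1% of the genes and 47.6% of the expressed genes of the stretch. The A07 share of counts was 48.9% ± 1.82 in shoots and 49.5% ± 1.70 in roots (permutation p = 0.421), and both means were above its share of genes. Outside the stretch the share was 65.4% ± 2.12 in shoots and 58.6% ± 1.49 in roots (permutation p = 2e-05, the smallest value the resamples give), and 57.8% ± 1.45 against 58.5% ± 1.47 without BnaA07g07560D and BnaA07g14420D (p = 0.266).

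**Figure D3:**
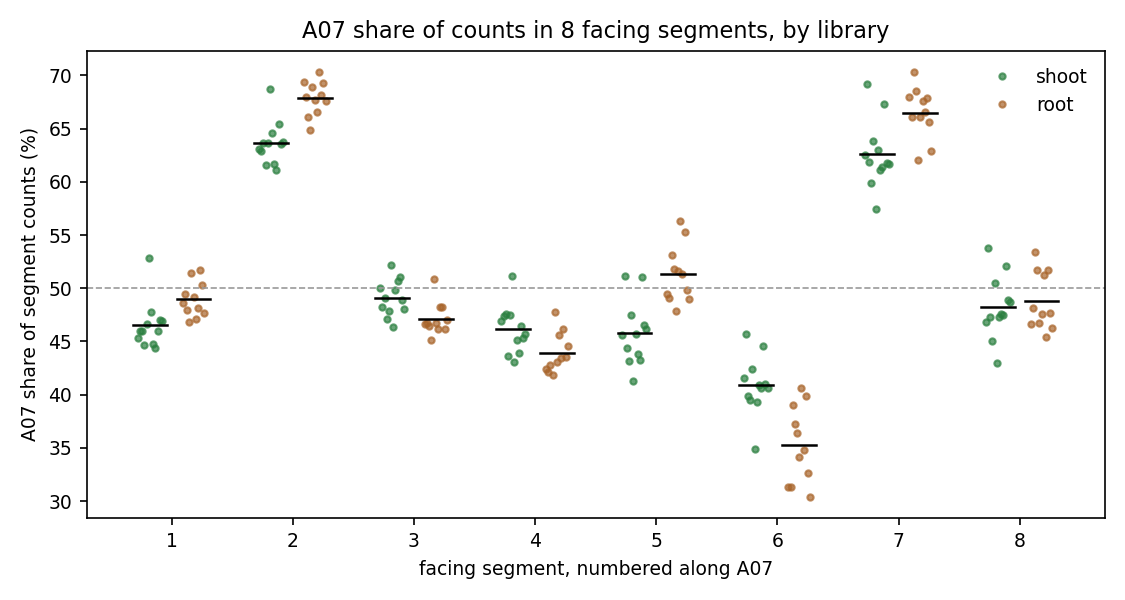
A07 share of the counts (percent) in each of 8 facing segments, numbered along A07. Points are libraries (12 shoot, 11 root), bars are tissue means, and the dashed line marks equal counts. Segment means run from 40.9% to 63.7% in shoots and from 35.3% to 67.9% in roots.

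Within a segment the tissue means differed by at most 5.66 points, less than the means of the highest and lowest segments. A07 gave the most counts in the second and seventh segments, with 63.7% ± 2.03 and 62.6% ± 3.13 in shoots and 67.9% ± 1.60 and 66.5% ± 2.41 in roots. C06 gave the most in the sixth, where the A07 share was 40.9% ± 2.70 in shoots and 35.3% ± 3.64 in roots. A07 holds 60.5% of the genes of the second segment, 50.3% of the seventh and 32.2% of the sixth. The second segment spans 0.837 Mb of A07 and ends in a gap of 828 kb. The sixth spans 0.644 Mb and starts in a gap of 865 kb. Their break points were put at the middle of those gaps, so both kinds of share depend on that choice. Other placings were not tested, and the SD covers the spread between libraries only. In the sixth segment no leading pair decided the value, since the share without the leading gene of each chromosome was 41.2% in shoots and 34.2% in roots.

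In 7 of the 8 numbered segments the A07 share differed between tissues (permutation test, n = 12 and 11, adjusted over the segments). The shoot share was higher in segment 3 (49.1% against 47.1%, adjusted p = 0.0121), segment 4 (46.1% against 43.9%, adjusted p = 0.0179) and segment 6 (adjusted p = 0.00144). It was lower in the first (46.5% against 48.9%, adjusted p = 0.0121), the second (adjusted p = 0.0008), the fifth (45.8% against 51.3%, adjusted p = 0.0008) and the seventh (adjusted p = 0.008). In the eighth it was 48.2% against 48.8% (adjusted p = 0.643). Leaving out the leading gene of each chromosome changed the reading of 2 segments. The fifth then gave 47.5% and 47.8% (adjusted p = 0.774), and the second turned round, with 71.1% in shoots and 67.9% in roots (adjusted p = 0.00128). These genes were picked by their levels in the same libraries, so whether they set the differences was not tested. Without the libraries under 2 M counts segments 1, 3 and 4 missed the threshold, with adjusted p = 0.0835, 0.0593 and 0.0593 in the permutation test.

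At a finer scale 20 facing windows of 0.5 Mb of A07 were set against interpolated stretches of C06. None was silent on either side. The lowest expressed share on C06 was 34.6%, and the A07 side was higher in 19 of 20. Over the whole stretch 65.3% of A07 and 54.5% of C06 genes were expressed, so nothing particular to these windows is read from that count. The A07 share of counts was highest in the 14th window, from 20000001 to 20500000, with 62.7% ± 3.16 in shoots and 73.4% ± 2.76 in roots. It was lowest for shoots in the 19th, from 22500001 to 23000000, with 29.0% ± 2.16 in shoots and 32.5% ± 2.69 in roots, and lowest for roots in the 12th, with 36.6% ± 2.59 and 29.8% ± 2.54. In the 14th the leading genes were BnaA07g28280D and BnaC06g30280D, and in the 19th BnaA07g33230D and BnaC06g36750D. Interpolation can part genes that face each other: the first and second windows, at 60.8% and 51.2% in shoots, put BnaA07g16530D in one and BnaC06g15470D in the next.

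Of the 24 runs of silent genes, 12 lie in the facing stretch, and within 250 kb of their facing position 52.3% to 77.8% of the partner's genes were expressed. Over the whole stretch 65.3% of A07 and 54.5% of C06 genes were, so nothing particular to the runs is read from these values. The 9 silent genes from BnaC06g19300D to BnaC06g19380D (C06, 21590278 to 21658443) faced a part of A07 where 69.5% of 105 genes were expressed. The 8 silent genes from BnaC06g39110D to BnaC06g39180D (C06, 36385957 to 36419722) faced one where 77.8% of 117 were. Whether each silent gene has its own counterpart there was not tested, as no sequences were compared.

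A minority of the abundant genes faced each other in pairs. Among genes at 200 CPM or more in a tissue within the facing stretch, pairs on the same strand, within 10% in gene length and within 500 kb of the facing position were taken, a rule set after levels were seen. In shoots 8 pairs came from 22 A07 and 23 C06 genes, and in roots 3 pairs from 7 and 10. That left 14 A07 and 15 C06 genes unpaired in shoots, and 4 and 7 in roots. The level in the named tissue chose these genes, and the level in the other tissue did not. Over the 11 pairs the A07 share of the pair's counts ran from 34.4% to 63.8%. Both genes had to reach 200 CPM, so a pair with a low copy could not enter. The rule thus bounds these shares, and no general balance of copies is read from them.

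BnaA07g16530D (A07, 13974871 to 13976634) and BnaC06g15470D (C06, 18188093 to 18189789) lay 35.0 kb from opposition on the interpolated map. The break points on either side are known only to within 148 and 828 kb. Their shoot levels were 1065 ± 276 and 922 ± 282 CPM (SD, n = 8), and their root means 0.407 and 0.607 CPM. The A07 gene gave 53.9% ± 1.84 of the pair's shoot counts, between 51.7% and 58.0% in every deep library. BnaA07g31590D (A07, 22029676 to 22031762) gave 58.1% ± 3.55 with BnaC06g35410D (C06, 34391739 to 34393896), at 1072 and 770 CPM in shoots and 0.383 and 1.16 CPM in roots. In these pairs the A07 gene had the larger mean.

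Other pairs leaned to C06. BnaA07g20510D (A07, 16037038 to 16037896) had 479 ± 144 CPM in shoots and BnaC06g20160D 905 ± 242 CPM, so that A07 gave 34.4% ± 3.30, at most 36.5% in any deep shoot library. BnaA07g32300D (A07, 22434494 to 22436182) gave 42.1% ± 3.04 with BnaC06g36750D (C06, 35124982 to 35126629). Among the root pairs BnaA07g32420D (A07, 22475699 to 22476668) leaned to A07, with 63.8% ± 1.502 against BnaC06g36880D (C06, 35172305 to 35173301) and 61.9% to 65.9% over the 9 deep root libraries. BnaA07g15900D (A07, 13618193 to 13619984) and BnaC06g14270D (C06, 17065197 to 17066998) were near balance, at 48.9% ± 2.21. The SD of a share between libraries was 1.502 to 5.68 points over the 11 pairs.

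**Figure D4:**
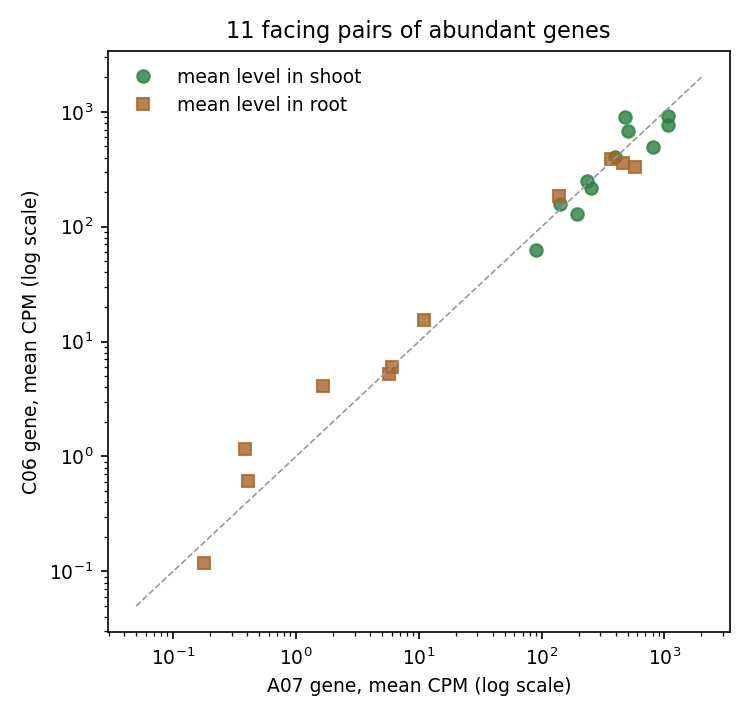
Mean level of the A07 gene against that of the C06 gene (CPM, log scales) for 11 facing pairs of abundant genes, in shoots (circles, 8 libraries) and roots (squares, 9 libraries). The dashed line marks equal levels. Pairs abundant in shoots reach down to 0.180 and 0.119 CPM in roots on both chromosomes.

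The tissue that did not choose the genes was then read. The 8 shoot pairs had root levels from 0.180 to 140 CPM on A07 and from 0.119 to 183 CPM on C06. The pair at the top of that range on A07, BnaA07g20570D (A07, 16087500 to 16088760) at 140 CPM, faced BnaC06g20430D (C06, 22463401 to 22464620) at 183 CPM, the top on C06. The pair at the bottom was BnaA07g19600D (A07, 15618498 to 15622489) with BnaC06g18870D (C06, 21211096 to 21215063) on either side. The 3 root pairs had 89.4 to 193 CPM in shoots on A07 and 62.6 to 158 CPM on C06. A further leading root gene, BnaA07g14980D, lies before the facing stretch, and BnaC06g12940D (C06, 15641869 to 15652635), at 388 ± 56.3 CPM, lies before it on C06. Their lengths are 10803 and 10767 bp, both lie on the minus strand, and in shoots they had 48.3 and 62.0 CPM.

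Shoot against root gave the most differences between groups. Control libraries were compared at each harvest with edgeR's quasi-likelihood test, and a gene was called at a Benjamini-Hochberg adjusted p under 0.05 over all 68002 genes tested in both tissues. At 24 h 571 of 2691 tested A07 genes and 547 of 2654 tested C06 genes were higher in shoots, where 20.8% of all tested genes were. Higher in roots were 740 and 746, where 28.2% of all genes were. At 7 d 638 and 672 were higher in shoots (background 23.9%) and 856 and 749 in roots (background 30.1%). The percentages of the 2 chromosomes, from 20.6% to 25.3% for shoots and from 27.5% to 31.8% for roots, lay near those backgrounds.

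Most preferences held at both harvests. On A07 503 genes and on C06 489 genes were higher in shoots at each harvest (background 18.1%), and 653 and 611 were higher in roots (background 23.8%). The direction turned between harvests for 3 genes on each chromosome. Neighbours shared a preference in 5 runs of 5 or more consecutive genes, all on A07. Runs on chromosomes outside the pair are not given here, so nothing particular to A07 is read from this count. The root runs were BnaA07g23180D to BnaA07g23260D (A07, 17488896 to 17523093) with 9 genes, BnaA07g30700D to BnaA07g30780D (A07, 21675914 to 21702309) with 9 and BnaA07g11010D to BnaA07g11080D with 8. The shoot runs held 8 genes, BnaA07g24550D to BnaA07g24620D, and 6, BnaA07g14370D to BnaA07g14420D, which ends with the second most abundant gene of the pair.

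The 2 members with the largest fitted fold towards roots in control plants at 24 h lie near facing positions of the map. BnaA07g28740D (A07, 20719653 to 20722164) had 122 and 256 CPM in the 2 control root libraries, and BnaC06g31330D (C06, 31878574 to 31884042) had 117 and 225 CPM. Neither had a count in the 3 control shoot libraries. With the floor set at 3 counts over the group, they were at least 6219-fold and 5598-fold lower in shoots (edgeR adjusted p = 1.82e-14 and 4.118e-11). The second lies 122 kb from the interpolated position that faces the first, although their gene lengths, 2512 and 5469 bp, differ. The break points on either side are known only to within 400 and 125 kb. With PA23 at 24 h the levels were 284, 270 and 279 CPM for BnaA07g28740D and 304, 226 and 240 CPM for BnaC06g31330D.

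Towards shoots BnaA07g23000D (A07, 17398503 to 17399429) led at 24 h with 114, 137 and 115 CPM in control shoots and no count in control roots, at least 5303-fold higher (edgeR adjusted p = 2.046e-14). BnaA07g32150D (A07, 22331042 to 22331660) followed with 43.8, 80.1 and 75.2 CPM, at least 3251-fold higher (adjusted p = 9.49e-08). At 7 d the leaders were BnaC06g36770D (C06, 35137601 to 35138458), with 78.6, 144 and 153 CPM, and BnaC06g33790D (C06, 33549158 to 33551039), with 30.8, 62.4 and 51.7 CPM. Neither had a count in the 3 control roots, which makes them at least 6004-fold and 2137-fold higher (edgeR adjusted p = 3.003e-06 and 2.451e-11). In PA23 roots at 7 d BnaC06g36770D had 0.0276, 0 and 8.36 CPM, the last in a library of 1.00 M counts.

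At 7 d the leaders towards roots were BnaA07g26790D and BnaC06g05690D. BnaA07g26790D (A07, 19594428 to 19597231) had 43.8 and 19.7 CPM in control roots at 24 h and 170, 255 and 185 CPM at 7 d, with no count in any control shoot. BnaC06g05690D (C06, 6336342 to 6337439) had 28.4 and 14.4 CPM and then 122, 150 and 126 CPM. At 7 d they were at least 5844-fold and 3848-fold lower in shoots (edgeR adjusted p = 3.128e-10 and 2.695e-14). For each of the 2 genes the control roots of the 2 harvests do not overlap, with adjusted p = 0.02259 and 0.001897 for the harvest change. With PA23 BnaA07g26790D had 61.3, 87.1 and 82.7 CPM in roots at 24 h and 184, 93.2 and 56.4 CPM at 7 d, which overlap (edgeR adjusted p = 0.4086). BnaC06g05690D had 33.9, 45.8 and 46.1 CPM and then 121, 78.3 and 48.75 CPM, which do not (edgeR adjusted p = 0.04273).

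PA23 changed few members, and edgeR called them in roots at 24 h. There 4 of 2523 tested A07 genes and 2 of 2482 tested C06 genes rose, where 0.146% of all 63551 tested genes did, and 2 and 2 fell, where 0.121% did. In roots at 7 d edgeR called none (background 0%), and DESeq2 called 10. There 344 members had an unadjusted edgeR p under 0.05, 7.25% of A07 and 6.49% of C06 genes tested, against 6.97% of all. In shoots edgeR called none at 24 h (background 0%) and none at 7 d (background 0.00177%), and DESeq2 called 0 and 1. At 24 h 42 shoot members had an unadjusted edgeR p under 0.05, 1.01% on A07 and 0.862% on C06, against 1.03% of all. At 7 d 199 did, 4.53% on A07 and 4.36% on C06, against 4.72% of all. Nothing particular to the pair is read from these counts. The DESeq2 counts have no share over all genes beside them. At 7 d the zeros depended on single libraries: without control replicate 1 the count in shoots was 56, of 737 genes called over all genes, and in roots it was 37 of 548 without PA23 replicate 1 and 3 of 81 without control replicate 2. In shoots at 24 h the count stayed at 0 without each of the 6 libraries.

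The members that rose in roots at 24 h included BnaA07g25540D (A07, 18954151 to 18955140). It had 1.83 and 2.94 CPM in controls and 9.86, 16.7 and 14.8 CPM with PA23, a log2 change of 2.53 ± 0.46 (SE; edgeR adjusted p = 0.04703). BnaA07g31230D (A07, 21907484 to 21908677) had 4.24 and 8.19 CPM in controls and 23.03, 34.4 and 34.7 CPM with PA23, a log2 change of 2.31 ± 0.39 (edgeR adjusted p = 0.0304). In control roots at 7 d these genes had 8.88 to 18.5 CPM and 11.2 to 42.7 CPM. The groups at 24 h do not overlap for either gene.

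BnaC06g37480D (C06, 35496609 to 35497118) had 3.23 and 5.14 CPM in control roots and 0.471, 0.388 and 0.574 CPM with PA23, and fell by 3.12 ± 0.48 on the log2 scale (edgeR adjusted p = 0.01239). BnaA07g30620D (A07, 21633405 to 21634139) had 7.09 and 7.498 CPM in controls and 1.37, 1.42 and 1.498 CPM with PA23, and fell by 2.36 ± 0.42 (adjusted p = 0.02602). In shoots both genes had at most 0.277 CPM in any library. The other 6 called members changed by log2 values from -1.42 to 4.72.

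Each of these 4 genes missed the threshold when some single libraries were left out, at least 3 of 5, and the count of 10 fell to 1 without any one of PA23 replicates 2 and 3 and control replicate 2, and to 6 without control replicate 3. DESeq2 called 56 members, 15 higher and 41 lower, of 811 genes it called over all genes, where edgeR called 170. In a test added after the data were seen, the PA23 effect in roots differed between harvests for 5 of 2523 A07 and 5 of 2482 C06 genes (edgeR, background 0.382%), and in shoots for 0 of 2275 and 1 of 2203 (background 0.00177%). In the shoots of A07 61 genes had an unadjusted p under 0.05, and DESeq2 called 0 members. Without the libraries under 2 M counts edgeR called 0 in roots, with 988 members at an unadjusted p under 0.05, and DESeq2 on all libraries called 128. No share over all genes stands beside the 61, 988 and 128, so nothing particular to the pair is read from them.

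Harvest changed more members than PA23 did, most of all in PA23 roots. From 24 h to 7 d 62 A07 and 59 C06 genes rose in PA23 roots (background 2.78%), and 106 and 107 fell (background 4.28%). In control roots 35 and 26 rose (background 1.27%) and 13 and 12 fell (background 0.452%). In control shoots 12 and 15 rose (background 0.658%) and 19 and 19 fell (background 0.812%). In PA23 shoots 14 and 10 rose (background 0.45%) and 5 and 4 fell (background 0.3%). As percentages of the tested genes, from 2.38% to 4.31% in PA23 roots, the counts of each chromosome were near the background in every comparison. The calls in PA23 roots were spread over all 24 windows of A07 and 37 of 38 windows of C06.

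Treated and control plants shared part of these lists, which come from separate libraries. In shoots 14 risen genes were common, 51.9% of the control list and 58.3% of the PA23 list, and 4 fallen genes were (10.5% and 44.4%). In roots 27 risen genes were common (44.3% and 22.3%) and 10 fallen genes (40.0% and 4.69%). Over all tested genes the shares were 43.2% and 63.1% for risen and 20.2% and 54.7% for fallen genes in shoots, and 51.8% and 23.6% and then 39.0% and 4.12% in roots, so nothing particular to the pair is read from these overlaps. Whether the harvest change differed between treatments is the same test as that of the PA23 effect between harvests, given above.

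In shoots BnaA07g20940D (A07, 16306900 to 16308329) rose in both treatments. It had 1.62, 2.50 and 3.20 CPM at 24 h and 25.7, 23.2 and 24.9 CPM at 7 d in controls, a log2 change of 3.15 ± 0.35 (edgeR adjusted p = 2.246e-05). With PA23 it had 2.05, 2.77 and 2.77 CPM and then 38.0, 7.40 and 38.9 CPM, a change of 3.53 ± 0.36 (adjusted p = 5.348e-06). The harvests do not overlap in either treatment, and the value of 7.40 came from a library of 0.883 M counts. In roots it stayed at or below 0.470 CPM.

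The next 3 shoot members passed the test in controls and not with PA23. BnaC06g24750D (C06, 26433551 to 26436217) rose in controls from 6.49, 1.79 and 2.09 CPM to 12.2, 8.70 and 13.5 CPM (log2 change 2.34 ± 0.50, edgeR adjusted p = 0.0136). With PA23 it had 6.155, 2.44 and 1.92 CPM and then 9.595, 0 and 8.77 CPM (adjusted p = 0.1547). BnaC06g09680D (C06, 11548315 to 11552497) fell in controls from 129, 185 and 226 CPM to 39.5, 36.3 and 37.7 CPM (log2 change -2.28 ± 0.41, edgeR adjusted p = 0.01304), and with PA23 it had 151, 168 and 154 CPM and then 32.4, 121 and 35.9 CPM (adjusted p = 0.1592). BnaC06g24560D (C06, 26317346 to 26318938) fell from 3.25, 5.93 and 5.45 CPM to 1.05, 0 and 0.267 CPM (log2 change -3.11 ± 0.68, adjusted p = 0.01613), and with PA23 it had 5.13, 2.03 and 3.41 CPM and then 0.396, 4.93 and 0.453 CPM (adjusted p = 0.1823).

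With PA23 BnaA07g23070D (A07, 17438524 to 17439256) rose from 0, 2.20 and 1.35 CPM to 6.55, 14.8 and 6.56 CPM (log2 change 2.19 ± 0.51, edgeR adjusted p = 0.04017). In controls it had 1.62, 5.003 and 3.08 CPM and then 2.56, 7.25 and 4.25 CPM (adjusted p = 0.9871). BnaC06g09450D (C06, 11335039 to 11336456) fell from 11.3, 6.12 and 8.31 CPM to 0.831, 2.47 and 1.31 CPM (log2 change -2.83 ± 0.45, adjusted p = 0.001817), and it fell in controls too, from 7.305, 10.8 and 8.57 CPM to 2.49, 2.175 and 1.51 CPM (log2 change -2.22, edgeR adjusted p = 0.003918). BnaA07g06370D (A07, 6726681 to 6728429) fell from 26.7, 11.1 and 13.3 CPM to 4.17, 6.16 and 4.98 CPM (log2 change -1.68 ± 0.35, adjusted p = 0.01771). In controls it had 9.74, 19.8 and 17.5 CPM and then 9.25, 5.80 and 7.06 CPM, which do not overlap (log2 change -1.14, edgeR adjusted p = 0.07343). For each of these 6 genes the difference between the treatments' harvest changes had an adjusted p of 1 (edgeR). BnaC06g24750D, BnaC06g24560D, BnaC06g09680D and the last 3 genes each lost the call when some single libraries of the comparison were left out, at least 2 in each case.

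In roots 2 genes that rose lie near facing positions of the map. BnaA07g21980D (A07, 16905115 to 16905799) had 0.485 and 0.198 CPM in control roots at 24 h and 14.8, 11.7 and 4.09 CPM at 7 d, a log2 change of 5.15 ± 0.67 (edgeR adjusted p = 0.002143). BnaC06g22710D (C06, 24698011 to 24698604) had 0.431 and 0.0283 CPM and then 7.96, 3.65 and 2.04 CPM, a change of 4.61 ± 0.89 (adjusted p = 0.02177). The harvests do not overlap, and the second gene lies 183 kb from the interpolated position that faces the first. The break points on either side are known only to within 427 and 865 kb. Both lie on the minus strand, with lengths of 685 and 594 bp.

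The A07 gene repeated the rise with PA23, from 0.408, 0.0647 and 0.417 CPM to 13.6, 6.58 and 1.39 CPM (log2 change 4.68 ± 0.54, edgeR adjusted p = 0.0007477). The C06 gene rose too, from 0.261, 0.130 and 0.0901 CPM to 5.96, 3.91 and 0 CPM (log2 change 4.55, adjusted p = 0.004485). The 0 belongs to a library of 1.00 M counts. In control plants the call on BnaC06g22710D was lost without control replicate 3 at 24 h (adjusted p = 0.0818).

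**Figure D5:**
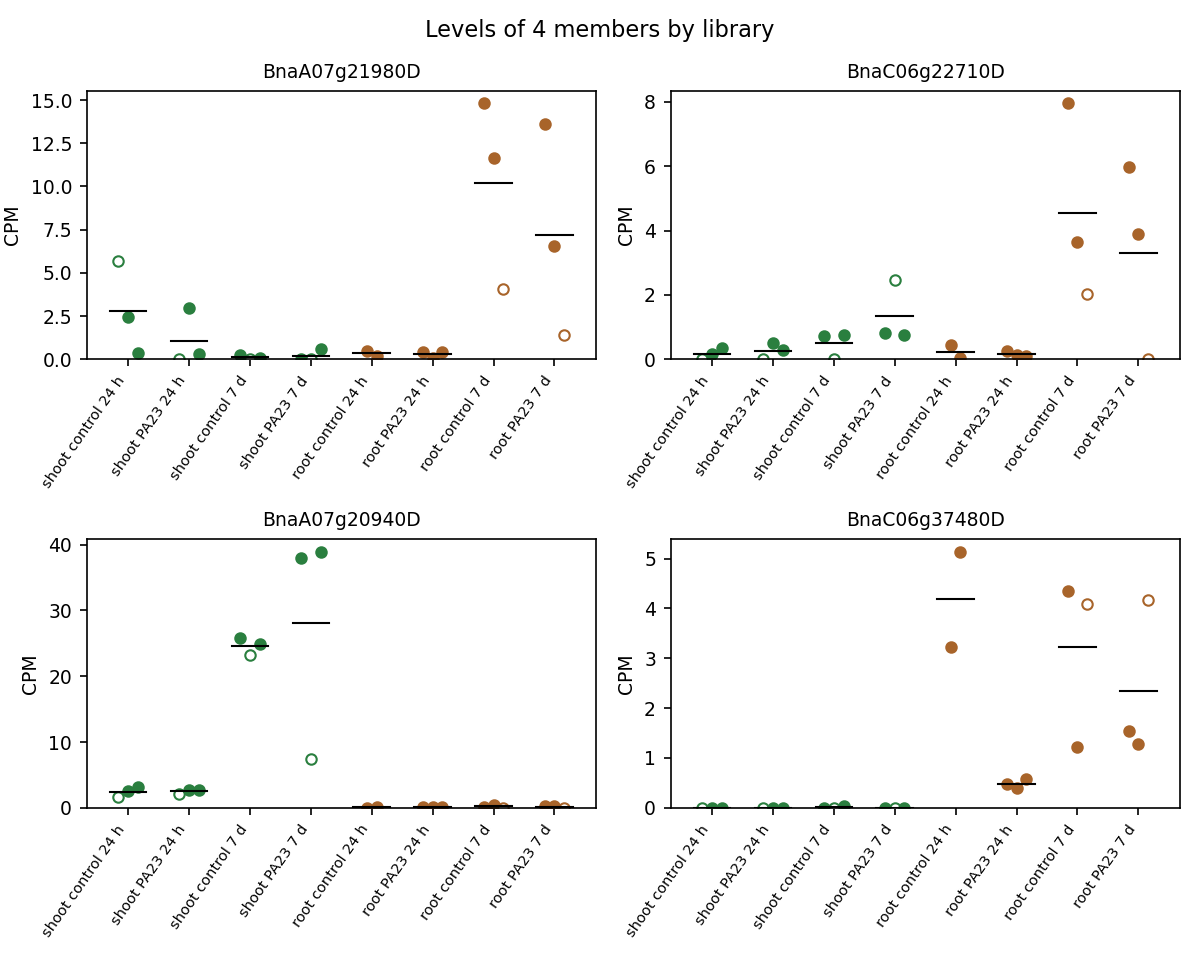
Levels (CPM) of 4 members in each library, by group. Points are libraries, open points those under 2 M counts, and bars group means. BnaA07g21980D and BnaC06g22710D are high in roots at 7 d, BnaA07g20940D in shoots at 7 d, and BnaC06g37480D is lowest among roots with PA23 at 24 h.

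Among the other root members BnaC06g37490D (C06, 35498375 to 35498978) rose with PA23 from 0.596, 0.0647 and 0.0676 CPM to 7.81, 4.76 and 6.27 CPM (log2 change 4.32 ± 0.81, edgeR adjusted p = 0.01423). It lies beside BnaC06g37480D, the gene that was lower with PA23 at 24 h. In control roots it had 1.19 and 0.269 CPM and then 9.90, 8.57 and 0 CPM (log2 change 3.48, edgeR adjusted p = 0.1037).

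Fallen root members in controls were BnaC06g10150D (C06, 12188254 to 12188619) and BnaC06g12270D (C06, 14630951 to 14632453). The first went from 8.06 and 5.18 CPM to 0.571, 0.561 and 4.09 CPM (log2 change -3.35 ± 0.50, edgeR adjusted p = 0.002487), and the second from 6.68 and 1.61 CPM to 0.519, 0.434 and 0 CPM (log2 change -3.16 ± 0.63, adjusted p = 0.01892). Both also fell with PA23. BnaC06g10150D went from 2.42, 2.78 and 2.22 CPM to 0.690, 0.669 and 0 CPM (edgeR adjusted p = 0.02096), and BnaC06g12270D from 5.975, 2.525 and 2.04 CPM to 0.635, 0.746 and 0 CPM (edgeR adjusted p = 0.02518). With PA23 the fallen members named by the same rule were BnaC06g02210D (C06, 3011678 to 3017004), from 2.68, 2.69 and 3.69 CPM to 0.497, 0.463 and 0 CPM (log2 change -2.70 ± 0.53, edgeR adjusted p = 0.007307), and BnaA07g06520D (A07, 6823891 to 6828490), from 3.35, 2.56 and 2.34 CPM to 0.359, 0.412 and 1.39 CPM (log2 change -2.68 ± 0.62, adjusted p = 0.01834). In control roots BnaC06g02210D had 3.50 and 2.53 CPM and then 2.84, 0.651 and 2.04 CPM (edgeR adjusted p = 0.5821), and BnaA07g06520D had 2.05 and 0.368 CPM and then 2.76, 1.465 and 3.06 CPM (edgeR adjusted p = 0.6189). The difference between the treatments' harvest changes missed the threshold for these 4 genes (edgeR adjusted p from 0.0698 to 0.7228). No count of BnaC06g10150D was found in any shoot library. BnaC06g12270D lost its call without control replicate 2 at 24 h or control replicates 1 or 2 at 7 d, BnaC06g02210D without PA23 replicate 2 at 7 d, and BnaA07g06520D without PA23 replicate 2 at 24 h or PA23 replicates 1 or 2 at 7 d.

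The harvest counts depend on single libraries. In PA23 roots 334 members were called, and 81 without PA23 replicate 2 at 7 d. Without PA23 replicates 2, 3 and 1 at 24 h the counts were 109, 116 and 160. A fit with the inferred run as a covariate gave 182, where all PA23 roots of 7 d came from 1 of 2 inferred runs. In control roots 86 were called, 21 and 30 without control replicates 2 and 3 at 24 h and 32 without control replicate 2 at 7 d. In control shoots 65 were called, 142 without control replicate 1 at 7 d, 43 and 42 without control replicates 2 and 3 at 7 d, and 22 and 25 without control replicates 2 and 3 at 24 h. In PA23 shoots 33 were called, 93 without PA23 replicate 2 at 7 d, 4 without either other library of 7 d, 12 and 21 without PA23 replicates 2 and 3 at 24 h, and 78 without the libraries under 2 M counts.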

How the data were processed

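RNA-seq counts per gene were analysed for 12 shoot and 11 root libraries. The authors deposited 1 table of unnormalised read counts. Per the submitters' processing notes HISAT2 and DESeq2 were used, without versions; build, annotation, counter, strand setting and treatment of reads matching several places are not named in these sources. The labels' protocols name a TruSeq RNA kit. The gene length column equals the start-to-end span for all 101040 genes.

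Groups came from the labels. The test was edgeR's quasi-likelihood test (version 4.0.16, R 4.3.3; filterByExpr, TMM), fitted over all genes with 1 fit per tissue, and 1 fit of all libraries for shoot against root. Benjamini-Hochberg adjusted p under 0.05 was a call. Shares of counts were compared by permutation tests over libraries (SciPy 1.17.1, exact for groups of 2 or 3, otherwise 100000 resamples). DESeq2 1.42.0 was an alternative, and limma 3.58.1, pandas 2.3.3, Python 3.11.15 and matplotlib 3.10.9 were also used. The edgeR step was tested on simulated data.

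Named genes are, per comparison and direction, the 2 members with the largest log2 change among called members with a mean log2 CPM of 1 or more and no overlap between groups, and the 5 of highest mean CPM per chromosome and tissue. Parts of the rule that need gene products or protein matches, the marker check and the product lists could not be applied. Members and lists were chosen with earlier results of these data known. Facing segments, windows and pairs, silent runs and the interaction test were chosen after seeing the data. Among counts from 1 to 10, 18.9% to 33.6% were odd in 22 libraries and 57.6% in root PA23 7 d replicate 1.

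Same-numbered libraries correlated by -0.121 to 0.23 in their deviations from group means, and in no comparison were all pairs above 0.1. The main fits therefore did not pair libraries. Weak correlations cannot exclude a pairing, and the replicate numbers of the titles differ from the column labels for some libraries. Alternatives were other size factors, no filter, no libraries under 2 M counts, a replicate block and the inferred sequencing run. Further ones were 3 closest pairs of libraries summed, other thresholds and windows, and leaving out each library.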

Additional observations from a re-analysis of the deposited data

Results flagged for a closer look

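The PA23 effect differed between harvests by the interaction test, added after the data were seen, for the following members. Each value is the log2 PA23 effect at 7 d minus that at 24 h. In roots BnaA07g16120D differed by 1.54 ± 0.32 (SE; edgeR adjusted p = 0.04798). Its levels were 95.3 and 85.0 CPM in controls and 45.2, 56.3 and 51.1 CPM with PA23 at 24 h, and 72.7, 46.6 and 30.6 CPM in controls and 72.6, 92.6 and 91.2 CPM with PA23 at 7 d. BnaC06g25310D differed by 1.41 ± 0.27 (edgeR adjusted p = 0.04028), BnaC06g15300D by -1.87 ± 0.38 (adjusted p = 0.04766) and BnaC06g18000D by -2.62 ± 0.52 (adjusted p = 0.04418).

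In shoots BnaC06g27730D differed by 13.3 ± 1.77 (edgeR adjusted p = 0.007002), at levels of at most 1.48 CPM. It had no count in the 3 control libraries of 7 d, so the size of 13.3 is a fitted value and no bound. All 5 genes missed the threshold without the libraries under 2 M counts, where the adjusted p ran from 0.0719 to 0.9885.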

How the results depend on the processing

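The changes of named members kept their direction under every alternative run, but in 80 of the values with 1 library left out (132 kept the call) and 40 under other settings (182 kept it) they missed the threshold or had no adjusted p. The replicate block gave 2 calls for PA23 in shoots at 7 d (0 without it), 45 for harvest in control roots (86) and 2 for the interaction in roots (10), and moved no other count by over 1.5 times. For PA23 in shoots at 7 d no filter gave 3 and DESeq2 1. For PA23 in roots DESeq2 gave 56 at 24 h and 10 at 7 d. Summing the 3 closest pairs of libraries gave 1 for PA23 in roots at 24 h, 29 and 3 for harvest in control and PA23 shoots, 57 and 116 in control and PA23 roots, and 0 for both interactions. Shoot PA23 7 d replicates 3 and 1 had a coefficient of variation of 5.64%, and root PA23 24 h replicates 2 and 3 of 7.87%. The third pair, shoot control 7 d replicates 2 and 3, had 14.45%. Whether any of these pairs are repeat libraries of 1 sample was not tested. The inferred sequencing run as covariate gave 182 for harvest in PA23 roots and 1 for the root interaction. Without libraries under 2 M counts harvest in PA23 shoots gave 78 and both interactions 0. The root interaction gave 24 with RLE size factors, 24 with no filter and 128 with DESeq2, and the shoot interaction 0 with DESeq2.

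Leaving out 1 library gave 0 to 0 calls for PA23 in shoots at 24 h, 0 to 56 at 7 d, 1 to 11 in roots at 24 h and 0 to 37 at 7 d. Harvest gave 22 to 142 in control shoots, 4 to 93 in PA23 shoots, 21 to 122 in control roots and 81 to 419 in PA23 roots. Tissue gave 2154 to 2535 at 24 h and 2504 to 2919 at 7 d, and the interaction 0 to 4 in shoots and 0 to 196 in roots. The share difference between harvests ran from -0.612 to 0.735 points in control shoots and from -0.598 to 0.634 in control roots, and was 0.0295 and -0.0858 per gene length.

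The shoot minus root share turned to -1.19 points without the 10 leading genes per chromosome, -0.974 without the 2 leading members, -0.601 inside the facing stretch and -0.695 outside it without those 2. The second segment turned to 3.20 without its leading genes. At 0.5 and 2 CPM, 67.2% and 55.2% of A07 genes and 56.7% and 44.9% of C06 genes were expressed. The causes of these changes were not tested. Depth limits levels in 6 libraries of 1.70 M counts or less.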
